A study of Rattus norvegicus with 13 samples.

Results

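The E2F and retinoblastoma (Rb) family comprised 10 genes here, namely the E2F transcription factors *E2f1*, *E2f2*, *E2f3*, *E2f4*, *E2f5*, *E2f7* and *E2f8* and the pocket protein genes *Rb1*, *Rbl1* and *Rbl2*. They were chosen by symbol as a gene family, and all 10 had a row among the 14790 genes of the table. Expression was measured by RNA-seq in mammary epithelial cells of untreated Wistar-Furth rats, a strain susceptible to mammary cancer, with 1 library per rat. The 6 rats at 6 weeks of age were within the window of susceptibility (WOS), the age span in which a carcinogen most readily gives rise to mammary tumours, and the 7 rats at 10 weeks were outside WOS. Glands were digested with collagenase and ductal fragments were held back on a filter, a preparation that is rich in epithelium and still holds fibroblasts and immune cells. The values are RSEM counts that were scaled for each library and rounded, here called normalized counts. In bulk RNA of this kind, fewer cells of a type and less RNA per cell cannot be told apart.

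E2F proteins bind DNA at the promoters of genes needed for entry into S phase. E2F1, E2F2 and E2F3 activate these genes, E2F4 and E2F5 act mainly as repressors in resting cells, and E2F7 and E2F8 are atypical members that repress without a DP partner and are themselves made late in G1 and in S phase. The pocket proteins pRb, p107 (*Rbl1*) and p130 (*Rbl2*) hold E2F proteins in check until cyclin-dependent kinases phosphorylate them. p107 and p130 also join E2F4 and the MuvB core in the DREAM complex, which silences cell cycle genes in quiescent cells, and p107 is itself an E2F target that is made mostly in dividing cells. In the mammary gland, ductal epithelium divides rapidly during puberty and less once the ducts are laid down.

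Several of these genes are known to carry E2F sites in their own promoters. Promoters of 5 of the 10 members (*E2f3*, *E2f7*, *Rb1*, *Rbl1* and *Rbl2*) were at hand from RefSeq on the GRCr8 assembly, as 250 bases before and 50 bases from each start site. The words TTTCCCGC, TTTCGCGC, TTTGCCGC and TTTGGCGC, which spell the E2F motif, were searched on both strands. *E2f3*, *Rb1* and *Rbl1* each held 1 match and *E2f7* and *Rbl2* held 0, while 2.14% of all 33469 promoters of the same length held at least 1. The wider set was not matched to the members in base content. The 130 bases from 100 bases before the start site on are shown for the 3 genes with a match, since 1 of them was higher, 1 lower and 1 not DE within WOS. Capitals mark the E2F match, which begins 78 bases upstream of the start site in *E2f3*, 18 bases upstream in *Rbl1* and just past the start site in *Rb1*. The stretches are chr17:34810316-34810445 (plus strand) for *E2f3*, chr3:166289347-166289476 (minus strand) for *Rbl1* and chr15:54911828-54911957 (minus strand) for *Rb1*.
E2f3: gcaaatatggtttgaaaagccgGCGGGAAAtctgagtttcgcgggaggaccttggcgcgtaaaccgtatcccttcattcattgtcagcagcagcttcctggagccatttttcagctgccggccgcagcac
Rbl1: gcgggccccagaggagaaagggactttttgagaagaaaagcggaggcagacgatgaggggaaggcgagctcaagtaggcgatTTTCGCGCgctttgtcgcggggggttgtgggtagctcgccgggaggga
Rb1: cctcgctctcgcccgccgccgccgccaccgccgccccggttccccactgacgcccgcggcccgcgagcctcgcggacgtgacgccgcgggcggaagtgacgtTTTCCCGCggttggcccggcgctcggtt
A match is a description of these letters and not evidence of binding.

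The total of normalized counts per rat lay between 13261906 and 15659533. One read stood for 0.578 to 2.07 normalized counts in the 12 rats where the spacing of low values gave this factor, which corresponds to 6.88e+06 to 2.31e+07 reads before scaling. Among these 12 rats, rats 80 (6 weeks) and 78 (10 weeks) had the fewest reads, so low counts are least precise there. The reads of rat 86 (6 weeks) are not known. Within the ages, the first component of the remaining variation, which held 28.3% of it, was cut at its largest gap. This gave a larger set of 8 rats, with 4 of each age, and a smaller set of 5, with 2 younger and 3 older rats. Such a cut yields 2 sets in any data, so the sets need not be distinct groups. No label names this split, and rats 78 and 80 lay in the smaller set.

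Between the ages, 7 of the 10 family members were differentially expressed (DE) at an adjusted p under 0.05, against 16.1% of all 14790 genes tested with limma on log2(normalized count + 1). Expression of *E2f1*, *E2f2*, *E2f7*, *E2f8* and *Rbl1* was higher within WOS, a direction in which 8.71% of all genes were DE. *Rb1* and *E2f5* were higher outside WOS, as were 7.39% of all genes. *E2f3*, *E2f4* and *Rbl2* did not pass the threshold. The ages did not overlap for 3 members higher within WOS (3.29% of all genes) and for 1 member higher outside WOS (2.78%), 4 members in all against 6.07% of all genes. The median log2 fold change, taken as 6 weeks over 10 weeks throughout, was 0.35 for the family and 0.028 for all genes. Because of the added pseudocount of 1, such a log2 fold change is smaller than the true change where counts are low.

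**Figure D1:**
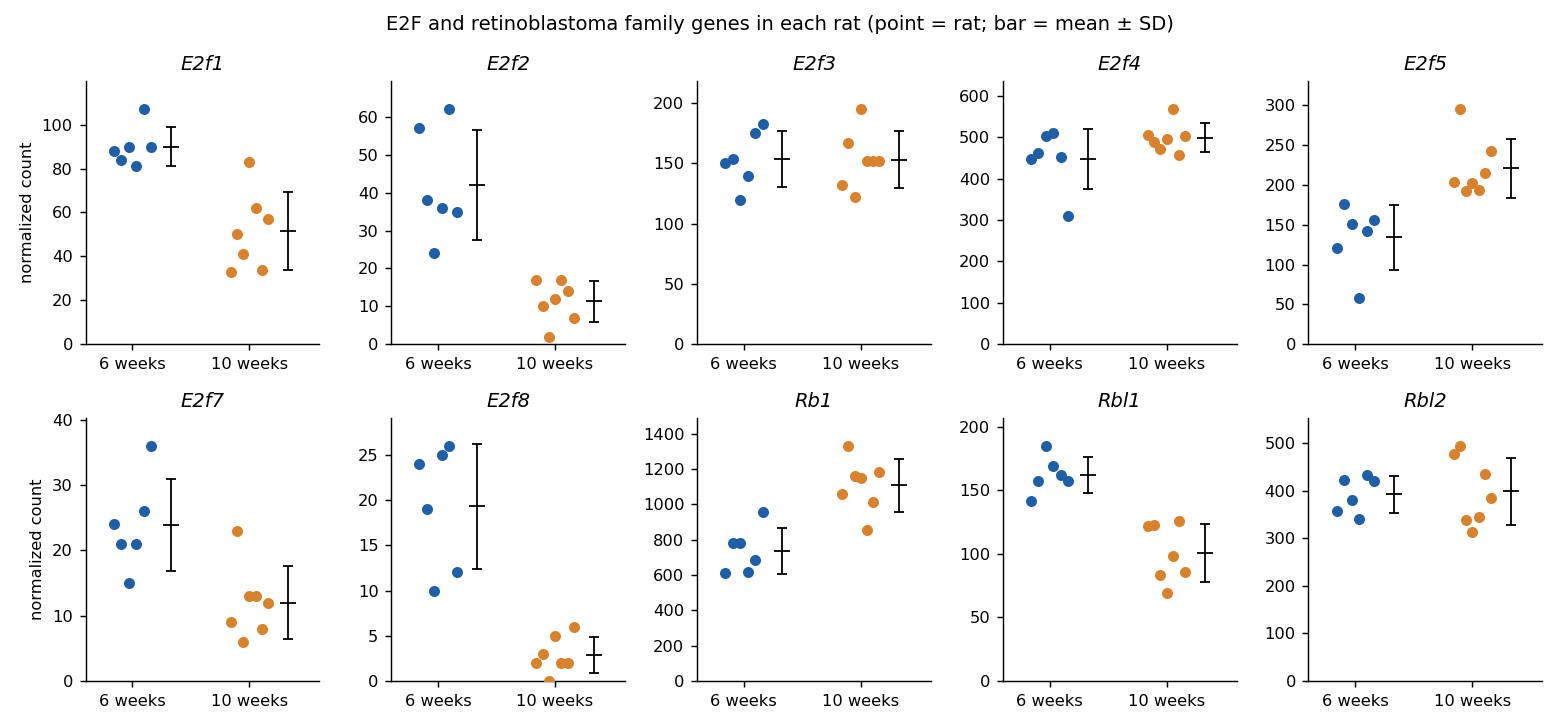
Normalized counts of the 10 family members in each rat (y axis, starting at 0; 1 panel per gene), with blue points for the 6 rats at 6 weeks, orange points for the 7 rats at 10 weeks and black bars for the mean ± SD. The ages do not overlap for *E2f2*, *E2f8* and *Rbl1*, which are higher at 6 weeks, and for *E2f5*, which is higher at 10 weeks.

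Among the activator E2Fs, *E2f1* and *E2f2* were higher within WOS and *E2f3* did not pass the threshold. *E2f1* (ENSRNOG00000016708) had a lowest value of 81, a median of 89 and a highest value of 107 normalized counts at 6 weeks, and 33, 50 and 83 at 10 weeks. Only rat 81, with 83, reached into the range of the 6-week rats. *E2f1* differed 1.81-fold (log2 fold change 0.86 with a standard error of 0.20, adjusted p = 0.0127), and the larger set of rats alone gave 1.10 on the log2 scale, against 0.51 in the smaller set. *E2f2* (ENSRNOG00000047741) ran from 24 through a median of 37 to 62 normalized counts at 6 weeks and from 2 through 12 to 17 at 10 weeks. Every rat at 6 weeks thus lay above every rat at 10 weeks, with a gap from 17 to 24. *E2f2* differed 3.81-fold (log2 fold change 1.93 with a standard error of 0.39, adjusted p = 0.00601). Alone, the larger set gave 1.94 and the smaller set 1.78 on the log2 scale. The highest levels at 6 weeks, 62 and 57, stood for 99 reads each, and the lowest at 10 weeks, 2 in rat 78, for 1 read. *E2f3* (ENSRNOG00000029273) had 120, 152 and 183 as its lowest, median and highest value at 6 weeks and 122, 152 and 195 at 10 weeks, so the ages covered the same range. Its log2 fold change was 0.0055, with a 95% interval from -0.28 to 0.29 (adjusted p = 0.981).

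Of the E2Fs that act mainly with pocket proteins, *E2f5* was higher outside WOS and *E2f4* did not pass the threshold. *E2f5* (ENSRNOG00000010760) had 58, 146.5 and 176 normalized counts (lowest, median, highest) at 6 weeks and 192, 204 and 295 at 10 weeks, without overlap. It was 1.72-fold higher outside WOS (log2 fold change -0.78 with a standard error of 0.23, adjusted p = 0.0343). This call is close to the threshold. Leaving out single rats gave an adjusted p from 0.0189 to 0.0706, and the call was lost without rat 70, 84, 72, 74 or 87. In the larger set alone it stood at -0.68 (adjusted p = 0.0244). The lowest value, 58, belonged to rat 80, without which the log2 fold change was -0.56. RefSeq lists a pseudogene, *E2f5-ps1*, and reads of *E2f5* that the counting may have shared with it are a source of uncertainty. *E2f4* (ENSRNOG00000015708), which makes up much of the E2F protein of resting cells, had 311, 457.5 and 510 normalized counts at 6 weeks and 458, 496 and 568 at 10 weeks. The log2 fold change of *E2f4* was -0.17 (95% interval -0.43 to 0.087, adjusted p = 0.347), and the lowest value came from rat 86, without which it was -0.070.

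The atypical E2Fs were both higher within WOS and rested on low counts. *E2f8* (ENSRNOG00000022537) had 10, 21.5 and 26 normalized counts (lowest, median, highest) at 6 weeks and 0, 2 and 6 at 10 weeks, so that no rat of one age reached the other. The 5.77-fold difference (log2 fold change 2.53 with a standard error of 0.40, adjusted p = 0.00138) was the largest of the 10 members. It was 2.36 on the log2 scale in the larger and 2.69 in the smaller set of rats. The values outside WOS are at the edge of detection, because they stand for 17 reads in the 7 rats together and for 0 reads in rat 78, against 130 reads in the 5 rats at 6 weeks with a known factor. With a pseudocount of 0.1 in place of 1, the log2 fold change of *E2f8* was 3.26. *E2f7* (ENSRNOG00000026252) ran from 15 through 22.5 to 36 at 6 weeks and from 6 through 12 to 23 at 10 weeks. Of the 6-week rats, 3 lay above all rats at 10 weeks, and rat 74, with 23, was the one 10-week rat within the range of the younger rats. *E2f7* differed 1.98-fold (log2 fold change 0.99 with a standard error of 0.26, adjusted p = 0.0253). The call was lost without rat 70, 84 or 72, where the adjusted p reached at most 0.0555, and held in the other 10 fits with 1 rat left out. Rats 78 and 80, those with the fewest known reads, were also both left out, a choice made once the values were known. *E2f7* then had a log2 fold change of 0.88 and an adjusted p = 0.0521.

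The pocket protein genes moved in different directions. *Rb1* (ENSRNOG00000016029), which encodes pRb, had 612, 732 and 956 normalized counts (lowest, median, highest) at 6 weeks and 853, 1151 and 1332 at 10 weeks. Apart from rat 86, with 956, all rats at 6 weeks were below all rats at 10 weeks. *Rb1* was 1.51-fold higher outside WOS (log2 fold change -0.59 with a standard error of 0.13, adjusted p = 0.0114), and the value was -0.61 in the larger and -0.59 in the smaller set of rats. *Rbl1* (ENSRNOG00000006921) had 142, 159.5 and 185 at 6 weeks and 69, 98 and 126 at 10 weeks, with no overlap. *Rbl1* was 1.63-fold higher within WOS (log2 fold change 0.70 with a standard error of 0.15, adjusted p = 0.00844). In the larger set alone its log2 fold change was lower, at 0.45, and the call was lost (adjusted p = 0.0571). In the smaller set alone its log2 fold change was higher, at 1.09, and did not pass the threshold either (adjusted p = 0.229). *Rbl2* (ENSRNOG00000012153) ran from 340 through 400.5 to 432 at 6 weeks and from 314 through 385 to 494 at 10 weeks. Its log2 fold change was -0.0086, with a 95% interval from -0.29 to 0.27 (adjusted p = 0.97), and its sign turned with library size scaling (0.039).

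**Figure D2:**
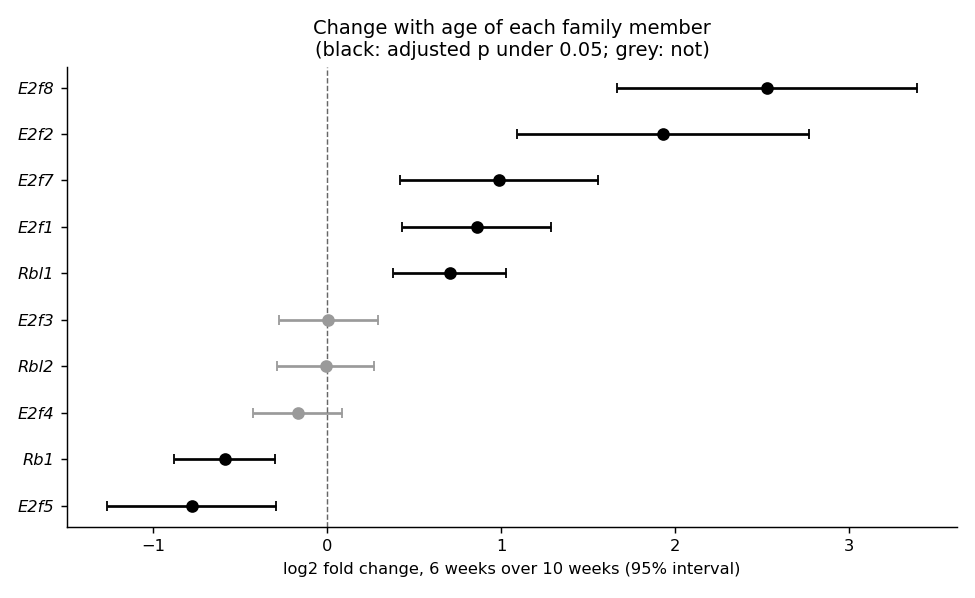
Log2 fold change of each family member between 6 and 10 weeks (x axis, above 0 is higher at 6 weeks) with its 95% interval from limma, ordered by size. Black points have an adjusted p under 0.05 and grey points do not, and the intervals of *E2f3*, *E2f4* and *Rbl2* include 0.

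Each member was also tested alone, with a two-sided exact permutation test of the mean log2 level over the 1716 ways of splitting 13 rats. *E2f2*, *E2f5*, *E2f8* and *Rbl1* reached an exact permutation p = 0.00117, the smallest value this test can give, while *E2f1* and *Rb1* had p = 0.00233 and *E2f7* had p = 0.00466. The exact permutation p was 0.107 for *E2f4*, 0.925 for *Rbl2* and 0.981 for *E2f3*.

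The balance between members was followed within each rat as a log2 ratio of normalized counts. The scaling of the library largely cancels in such a ratio, apart from the pseudocount, which weighs at low counts. Each mean difference follows from the log2 fold changes of the paired members and is not separate evidence. These ratios compare the ages and not the absolute levels of different genes, which were not corrected for length. The log2 ratio of *Rbl1* to *Rb1* had a mean of -2.17 ± 0.25 (SD) in the 6 younger rats and of -3.46 ± 0.41 (SD) in the 7 older rats. The younger rats lay between -2.60 and -1.86 and the older rats between -4.04 and -3.00, a mean difference of 1.30. For *Rbl2* to *Rb1* the difference was 0.58, with 5 of the 6 younger rats above all older rats. The log2 ratio of *E2f2* to *E2f3* was 1.92 higher within WOS, again without overlap. The log2 ratio of *E2f8* to *E2f7* had a mean of -0.32 ± 0.63 (SD) in the younger and -1.87 ± 0.71 (SD) in the older rats, and 5 of the 6 younger rats lay above all older rats. At 10 weeks *E2f8* had 0 to 6 and *E2f7* 6 to 23 normalized counts, so the pseudocount of 1 weighs on this ratio. For *E2f5* to *E2f4* the ratio was 0.61 lower within WOS (difference -0.61) and the ages overlapped. Without rat 80 the difference was -0.34.

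**Figure D3:**
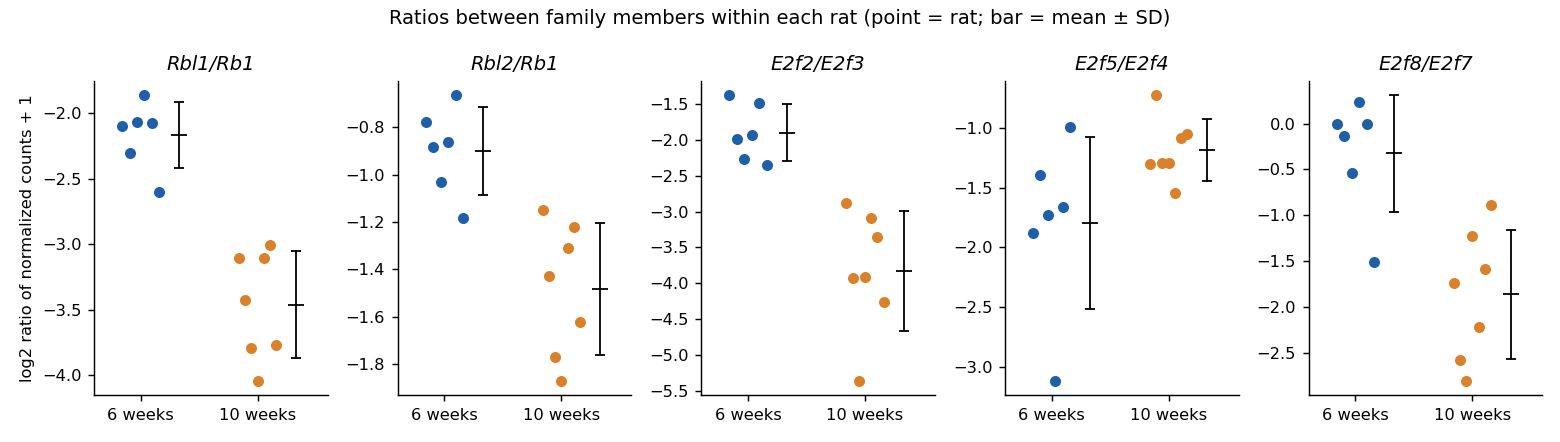
Log2 ratio of normalized counts + 1 between pairs of family members in each rat (y axis), with blue points for the 6 rats at 6 weeks, orange points for the 7 rats at 10 weeks and black bars for the mean ± SD. The ratios of *Rbl1* to *Rb1* and of *E2f2* to *E2f3* separate the ages, and that of *E2f5* to *E2f4* does not.

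Around the family, the DP partners did not pass the threshold. *Tfdp1*, whose product pairs with E2F1 to E2F6 for DNA binding, averaged 699.5 ± 45.1 normalized counts (SD) in the 6 younger and 651 ± 102 in the 7 older rats (log2 fold change 0.12, adjusted p = 0.51 by limma), and *Tfdp2* had a log2 fold change of 0.36 (adjusted p = 0.12). *E2f6*, a repressor that acts without pocket proteins, was higher outside WOS (407 ± 37.0 against 552 ± 97.8 normalized counts, mean ± SD, log2 fold change -0.42, adjusted p = 0.039 by limma). With single rats left out, *E2f6* stayed DE in 4 of 13 fits, those without rat 80, 78, 81 or 83, and the call was lost with library size scaling (adjusted p = 0.0983). In the list of the MuvB core with B-Myb and FoxM1, 2 of 8 genes were DE and both were higher within WOS. Of all genes, 16.1% were DE and 8.71% were DE in this direction, and 2 of 8 rests on few genes. *Mybl2* (B-Myb), which takes the place of pocket proteins on MuvB in S phase, was among the most clearly changed, with a mean of 63.5 ± 23.3 normalized counts (SD) in the younger and 14.9 ± 2.61 in the older rats (log2 fold change 1.96, adjusted p = 0.000184 by limma). *Foxm1*, which drives late cell cycle genes, had a log2 fold change of 0.70 (adjusted p = 0.0127). For both *Mybl2* and *Foxm1* all 6 younger rats lay above all older rats, as for 3.29% of all genes. The MuvB core genes *Lin9* (0.38), *Lin37* (0.051), *Lin52* (0.43), *Lin54* (-0.20) and *Rbbp4* (0.25) did not pass the threshold, nor did *Mybl1* (-0.43).

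Of the 8 kinases and cyclins that phosphorylate pocket proteins, *Cdk4*, the partner of D-type cyclins, was DE, with a mean of 376 ± 159.5 normalized counts (SD) in the younger and 179 ± 34.2 in the older rats (log2 fold change 0.98, adjusted p = 0.0194 by limma). The D-type cyclins had log2 fold changes of 0.21 (*Ccnd1*), 0.16 (*Ccnd2*) and 0.25 (*Ccnd3*) and were not DE, nor were *Cdk2* (0.17) and *Cdk6* (0.066). The 1 DE gene among these 8 is near the share of all genes, 16.1%. *Ccne1* and *Ccne2*, E2F targets that partner CDK2, pointed in opposite directions (0.63 with adjusted p = 0.0724 and -0.41 with adjusted p = 0.178) without passing the threshold. Of the 5 measured CDK inhibitors, *Cdkn1c* (p57) was DE and higher within WOS (log2 fold change 0.82, adjusted p = 0.0352), and stayed DE in 5 of 13 fits with a rat left out, those without rat 71, 75, 78, 81 or 85. *Cdkn1a* (p21) and *Cdkn1b* (p27) had log2 fold changes of -0.10 and -0.11 and were not DE, nor were *Cdkn2b* (0.53) and *Cdkn2c* (0.49). With so few genes, 1 of 5 is likewise near the share of all genes. Among 4 genes for the turnover of E2F proteins, *Ccnf*, whose product cyclin F marks E2F proteins for degradation, was DE and higher within WOS, with a mean of 119 against 52.9 normalized counts (adjusted p = 0.00514), while *Skp2* (0.12), *Fzr1* (0.38) and *Fbxo5* (0.15 on the log2 scale) were not DE. With so few genes, 1 of 4 is not set apart from the 16.1% of all genes. Among 10 measured corepressor genes of the pocket proteins, *Sin3a* was DE and higher outside WOS (log2 fold change -0.31, adjusted p = 0.0437), and stayed DE in 4 of 13 fits with a rat left out, those without rat 86, 81, 83 or 85. The call was lost with library size scaling (adjusted p = 0.0733), and 1 of 10 is below the 16.1% of all genes that were DE.

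Many known targets of the family were higher within WOS. In a list of 41 measured G1/S genes that E2F controls, 23 were DE and higher within WOS, 1 was DE and higher outside WOS and 17 did not pass the threshold, and the median log2 fold change was 0.99. Among all genes, 8.71% were DE and higher within WOS, with a median of 0.028. The largest increases were those of *Rrm2*, a subunit of ribonucleotide reductase (2.82, adjusted p = 0.0121), *Mcm10*, a replication initiation factor (2.19, adjusted p = 0.00123), and *Uhrf1*, which helps to maintain DNA methylation (2.18, adjusted p = 0.00242). *Msh6*, a mismatch repair gene, was the exception with a log2 fold change of -0.48 (adjusted p = 0.00671). In a list of 31 late cell cycle genes that MuvB complexes control, 30 were DE and higher within WOS, with a median of 2.38. Among them, *Tpx2* (3.67, adjusted p = 0.00573), *Birc5* (3.37, adjusted p = 0.000653) and *Ect2* (3.20, adjusted p = 0.00021) increased most, and *Aurka* did not pass the threshold (0.53, adjusted p = 0.112). These 3 genes act in spindle assembly, chromosome segregation and cytokinesis. Both lists are textbook targets and were put together with earlier results of these data known.

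**Figure D4:**
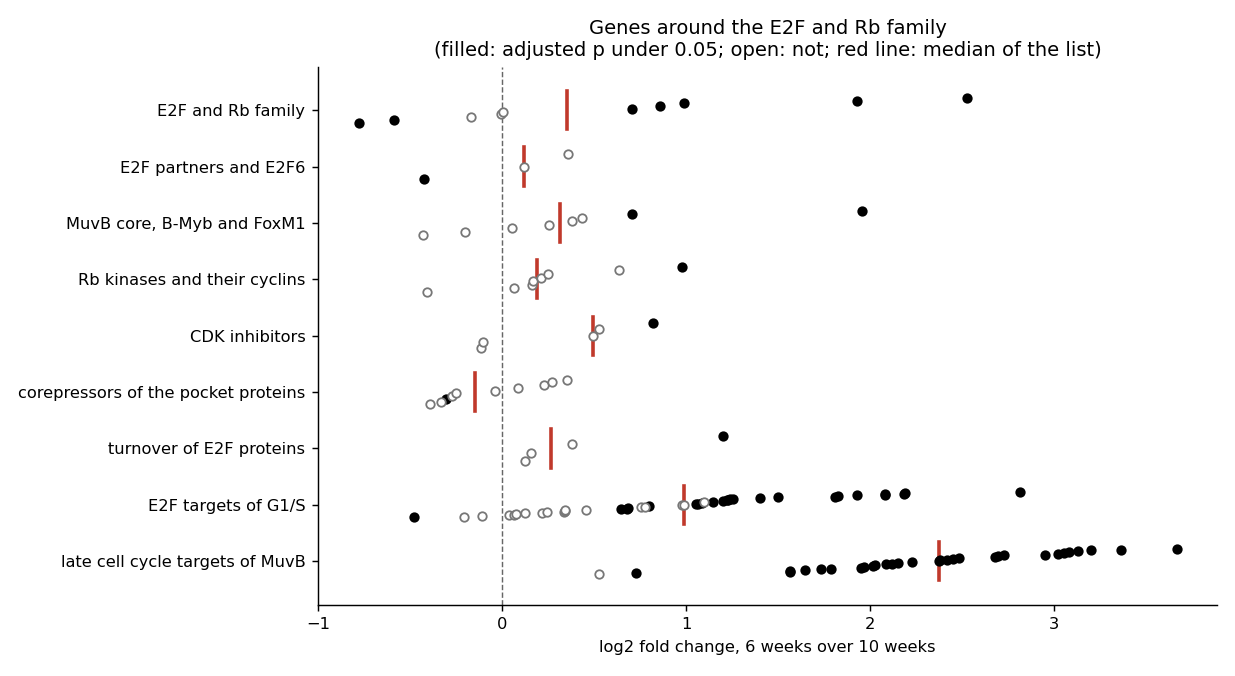
Log2 fold change between 6 and 10 weeks (x axis, above 0 is higher at 6 weeks) of every measured gene in the family and in the lists around it (rows). Filled points have an adjusted p under 0.05, open points do not, and red lines mark the median of each list, which is 0.35 for the family, 0.99 for the G1/S targets and 2.38 for the late targets.

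The promoters of these targets carried different words. Of 35 G1/S genes with a promoter in the RefSeq table, 18 (51.4%) held an E2F match, against 2.14% of all promoters. Of 27 late genes, 1 (3.7%, *Cdk1*) held an E2F match and 20 (74.1%) held TTCGAA or TTTGAA, the words of the cell cycle homology region (CHR) to which MuvB binds. All promoters held a CHR word in 19.7% of cases, the G1/S genes in 14.3%. Both lists were made of known targets of E2F or MuvB, so their higher shares of these words are a description and not separate evidence. CCAAT, the word of the factor NF-Y, was present in 65.7% of the G1/S genes, in 77.8% of the late genes and in 37.5% of all promoters. Among the members, *E2f7* held 2 CCAAT matches, *E2f3* held 3 with 1 CHR word, and *Rbl2* held 1 CHR word. Only *Cdk1* of the 27 late genes and 3 of the 5 members held the E2F motif in this window.

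The level of the G1/S targets in each rat was set beside each member, within each age because the ages form separate clusters. This gave 20 relations, of which 0 had an adjusted p under 0.05 (exact permutation test, two-sided, Benjamini-Hochberg) and 1 had an unadjusted p under 0.05 for Pearson's r. That was *E2f3* at 10 weeks, with r = 0.889 (exact p = 0.0119, adjusted p = 0.238, n = 7 rats) and Spearman's rho = 0.741 (exact p = 0.069, adjusted p = 0.537). Without rats 81 and 78, r was 0.33, so the relation rests on these rats. *E2f2* had r = 0.82 at 6 weeks (exact p = 0.0597, adjusted p = 0.428, n = 6) with rho = 0.714 (exact p = 0.136, adjusted p = 0.537), and r was 0.42 without rats 84 and 70. Rat 81 had the highest target level at 10 weeks, 6.96 as a mean log2 level while the remaining older rats lay from 6.07 to 6.46. The same rat had the highest *E2f1* and *E2f3* and the lowest *Rbl1* and *Rbl2* of its age.

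**Figure D5:**
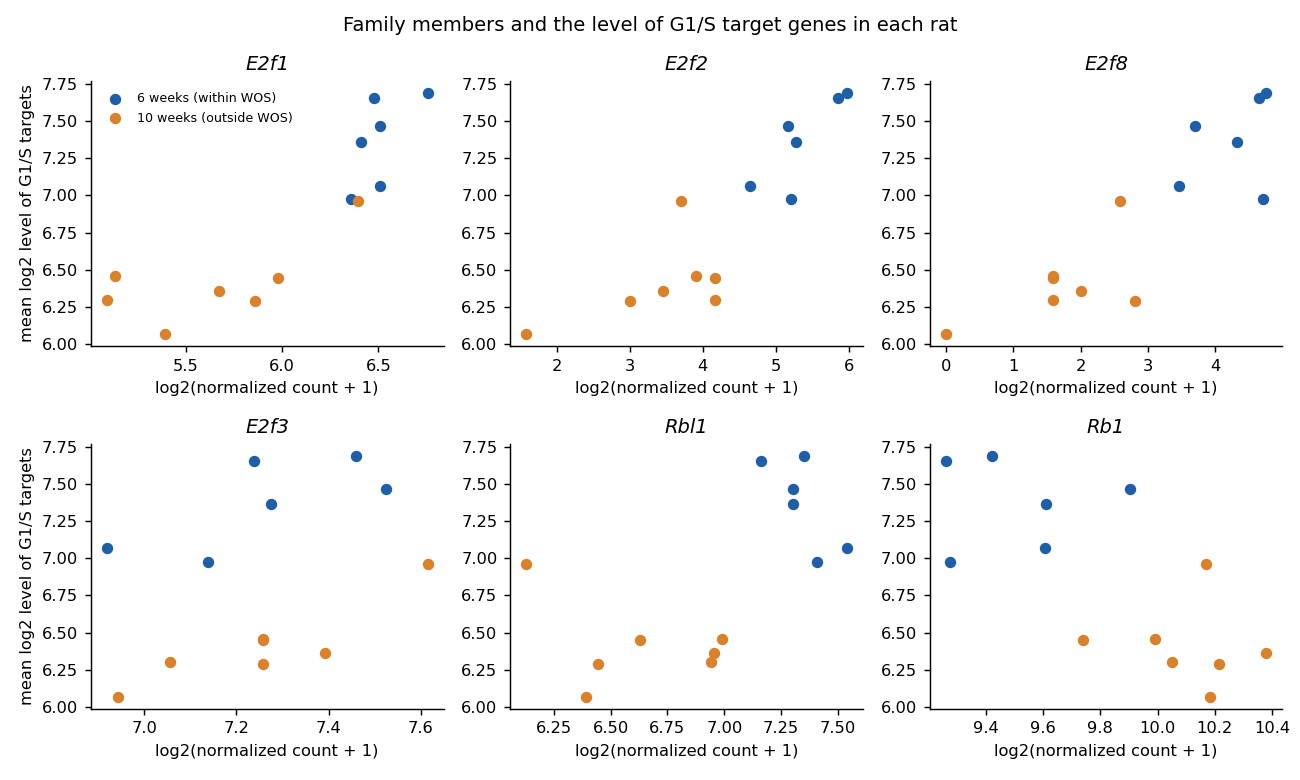
Mean log2 level of 41 G1/S target genes (y axis) against log2(normalized count + 1) of 6 family members (x axis) in each rat, blue at 6 weeks and orange at 10 weeks. The orange point near 6.96 on the y axis is rat 81.

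As a description, the genes most like each DE member were those with the highest Pearson r over the 13 rats, computed on deviations from the age means, among 10737 genes with a mean of at least 50. No p is given, since they were picked as the highest. For *Rb1* these were *Brwd3* (r = 0.946) and *Cdkn1b* (r = 0.946), and for *Rbl1* they were *Dock5* (r = 0.91) and *Tbp* (r = 0.908). For *E2f1* they were *Ahcy* (r = 0.917) and *Iqgap3* (r = 0.886), for *E2f2* *Gls2* (r = 0.93) and *Rgp1* (r = 0.916), for *E2f5* *LOC103694082* (r = 0.96) and *Tada1* (r = 0.951), for *E2f7* *Tmem229a* (r = 0.849) and *Lpcat2* (r = 0.845), and for *E2f8* *Vps25* (r = 0.856) and *Hdac8* (r = 0.85). Of these 14 genes, *Iqgap3* had the largest difference between the ages, with a log2 fold change of 2.18 (adjusted p = 0.000856 by limma). A single rat with a very low value can weigh on such an r. In rat 78, *E2f8* had 0 and *E2f2* had 2 normalized counts, and *E2f5* had 58 in rat 80. For *E2f8*, Spearman's rho was 0.785 with *Vps25* and 0.689 with *Hdac8*.

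Markers of both epithelial layers were present in every rat. The summed level of 10 luminal genes lay between 14412 and 30533 normalized counts within WOS and between 20635 and 31687 outside WOS, and that of 7 basal genes between 22593 and 34339 and between 30622 and 40530. Markers of other cells moved with age alongside the family. The sum of 7 fibroblast genes was 106962 to 223018 within WOS and 19450 to 55489 outside WOS. Most of this sum came from the collagen genes *Col3a1* (mean 107800 at 6 weeks and 24790 at 10 weeks) and *Col1a1* (mean 50180 and 13320). Of the 7 genes, 5 were DE and higher within WOS. *Pdgfra* (log2 fold change 0.13, adjusted p = 0.78 by limma) and *Dcn* (0.57, adjusted p = 0.197) were not DE. For 5 red blood cell entries, of which 2 share the symbol *Hba-a2*, the sum was 1854 to 5679 and 254 to 1226. All 5 entries were DE and higher within WOS, and the erythroblast genes *Klf1* and *Epor* were not analysed here. For 5 mast cell genes the sum was 379 to 932 and 25 to 232, with 5 of 5 DE and higher within WOS. *Kit*, which luminal cells also express, was left out of this sum and went the other way (log2 fold change -0.71, adjusted p = 0.0343 by limma), and with it the sums overlapped, at 1831 to 2873 and 1520 to 3780. *Kit* was also the 1 DE gene of the luminal list. In the lists of 8 macrophage and 6 endothelial genes 0 were DE by limma. The B cell gene *Cd79b* was DE and higher within WOS (adjusted p = 0.0352 by limma), with at most 16 normalized counts in any rat. Of 5 adipocyte genes, 2 (*Adipoq* and *Plin1*) were DE and higher within WOS, and of 3 skeletal muscle genes 0 were DE. The part of these cells in the differences of the family was not tested.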

How the data were processed

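RNA-seq counts of 13 rats were estimated by the authors with RSEM 1.2.22. The deposited values were multiplied by a factor for each library and rounded, so their unit is taken as a score, per the file values, and not as raw counts. The submitters' processing notes name rn5, and the annotation is not given in the sources used here. The deposited table also holds the authors' edgeR comparison and a word on cellular location, neither of which was used. Groups came from the sample titles.

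The ages were compared by limma 3.58.1 (R 4.3.3) without covariates, on log2 values with a pseudocount of 1, over all 14790 genes (two-sided, Benjamini-Hochberg, threshold 0.05). All of them met the minimum mean of 1. The fit was tested on simulated data. Exact tests, ratios and motif searches ran in Python 3.11.15 (scipy 1.17.1, numpy 2.4.6, pandas 2.3.3). Each library's factor came from the gaps among low values (1 to 30), accepted where it raised the log likelihood by 50 or more. No rats were counted as the same sample, and the highest r between libraries was 0.978. Promoters are from RefSeq (GRCr8).

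All members and the genes of the small lists are named. From the corepressors and targets, the 3 DE genes with the largest change in each direction are named, and for each DE member the 2 genes most like it. *Aurka*, *Cdk1* and the marker genes are named with their values known. The members and lists were chosen with earlier results of these data known. Alternatives were other scalings, pseudocounts, minimums and weights, limma-trend, a residual component, each rat set and each rat left out. The Hi-C data were not analysed here.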

Additional observations from a re-analysis of the deposited data

Results flagged for a closer look

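In 20 groups of rats (10 members at 2 ages), 4 held a rat far from the others of its age, judged by its gap to the nearest rat as a share of the whole range. Chance alone gives about 1 such group in 20. At 6 weeks, rat 84 had 107 normalized counts of *E2f1* with 90 as the next value, and rat 86 had 311 of *E2f4* with 447 as the next. At 10 weeks, rat 83 had 568 of *E2f4* with 505 as the next, and rat 74 had 23 of *E2f7* with 13 as the next. *E2f1* stayed DE without rat 84 and *E2f7* without rat 74. *E2f4*, which was not DE, had a log2 fold change of -0.17 with all rats and of -0.070 without rat 86.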

How the results depend on the processing

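Of 260 values of the members under alternatives, 229 kept their direction and their side of the threshold, 17 of DE members no longer passed it and 14 changed sign, the last all for *E2f3* and *Rbl2*. Part of this count was fixed beforehand. Dropping the minimum mean repeats the main fit, since all genes met it. A higher minimum, limma-trend, the residual component and the exact permutation test keep the main log2 fold change. They could alter only the call, and the permutation p was not adjusted. In the smaller set of rats alone, 0 members were DE in either direction (0 of all genes by limma, 1976 at an unadjusted p under 0.05), where 5 rats entered the fit. *E2f3* changed sign with median-ratio scaling (-0.015), in the smaller set (-0.24) and without rats 78 and 80 (-0.022), and lay between -0.047 and 0.074 with single rats left out. *Rbl2* changed sign with library size scaling (0.039) and in the smaller set (0.12), and lay between -0.062 and 0.046. With single rats left out, DE members numbered 4 to 5 higher within WOS and 1 to 2 higher outside WOS, DE kinases and cyclins 1 to 2 (*Ccne1* joined without rat 75 or 80) and DE CDK inhibitors 0 to 2. Over all genes the 2381 calls became 5647 with sample quality weights, and 1411, 1488 and 1558 without rat 70, 84 and 87. *E2f1*, *E2f2*, *E2f8*, *Rb1* and *Rbl1* were DE in all 13 such fits. No paired analysis was possible because the ages share no rat numbers. Outside WOS, fewer than 10 reads lay behind *E2f8* in 7 of 7 rats, *E2f2* in 4 and *E2f7* in 3, which limits their precision. *E2f6* and *Sin3a* lost their calls with library size scaling.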
